A study of Mus musculus with 3 samples.

Results

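The comparison described here sets bone marrow cells of mice challenged repeatedly with Escherichia coli beside bone marrow cells of mice challenged once, 1 single-cell RNA library on each side. Its members are all cells of those 2 libraries with at least 500 unique molecular identifiers (UMIs, tags that count captured mRNA molecules), at least 300 detected genes and at most 10% of UMIs in mitochondrially encoded genes, 17192 of the 26415 cells that pass these limits in the series. The challenged once library gave 8650 cells and carries the label 24 h. The library challenged a second time, called rechallenged below, gave 8542 cells and carries the label 48 h. An unchallenged library at steady state gave 9223 cells, and its level is set beside the main values. All 3 libraries came from C57BL/6 mice and from marrow enriched for cells bearing Kit, the receptor for stem cell factor. The series' design text counts 2 samples and names another treatment than the labels of the 3 samples do, and those labels were followed here. The labels do not state from which moment the hours count, how many animals a library holds, or whether animals were pooled. The number of challenges and the labelled hours differ together and cannot be told apart. With 1 library in each group there is no replicate spread, so no test was made, and every interval below is a 95% interval for counting error only.

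Bacterial products and the interferons they call out act on marrow progenitors as well as on mature white cells. Type I and type II interferons signal through STAT proteins and interferon regulatory factors, which bind short promoter elements and switch on antiviral effectors, antigen processing and further signalling genes. Marrow also answers bacterial infection with emergency granulopoiesis, in which progenitors are diverted to neutrophils, whose granule proteins are made in a fixed order from azurophil to specific to gelatinase granules. Repeated exposure to a stimulus can leave such programmes weaker or stronger than a single exposure, which is the question a series with 1 and 2 challenges allows to be asked of marrow.

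Levels are given as counts per 1000000 UMIs (CPM) after each cell with at least 2000 UMIs was drawn down to exactly 2000, which left 7972 challenged once, 7780 rechallenged and 8812 unchallenged cells. Before that step the median cell held 13477 UMIs after 1 challenge, 10500.5 after rechallenge and 11196 when unchallenged. A gene was called higher or lower when its ratio of rechallenged to challenged once was at least 1.5-fold after 10 CPM was added to both sides, and it was tested for this only with at least 100 UMIs over the pair. Log2 values below are of this ratio, negative where the rechallenged library was lower. Adding 10 CPM understates the ratio of genes at low levels. The challenged once and rechallenged libraries shared 103 cell barcodes, and the unchallenged library shared 125 and 113 with them.

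Of 9682 tested genes, 175 were higher in the rechallenged library, a background of 1.81%, and 1218 were lower, a background of 12.6%. The median tested gene stood at -0.17, so the medians of gene lists below are to be read against that value. When that median was set to 0, 373 genes were higher and 596 lower. At 2-fold, 45 genes were higher and 187 lower. For 1129 of the 1218 lower genes the unchallenged level lay between the other two, and for 503 it was nearer to the rechallenged than to the challenged once level. For 98 of the 175 higher genes the unchallenged level lay below both challenged libraries.

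**Figure D1:**
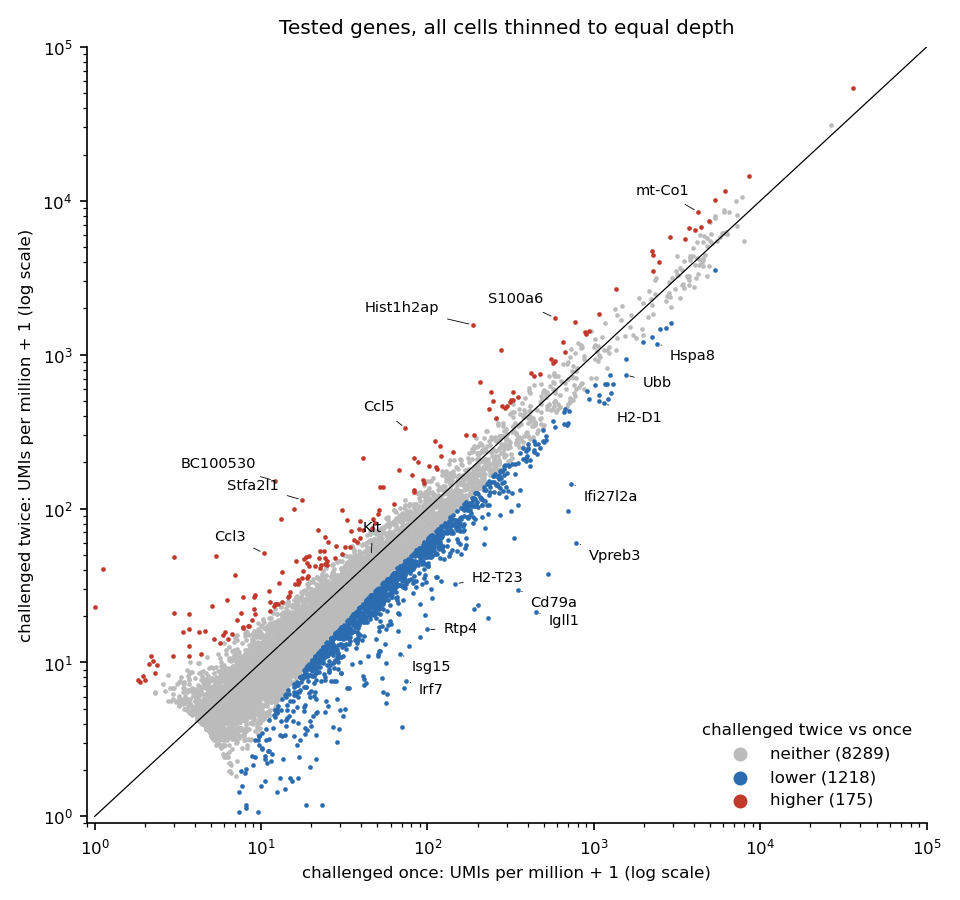
Level of each of the 9682 tested genes in the challenged once (x axis) and the rechallenged library (y axis, drawn under its label), both in CPM plus 1 on log scales. Points are genes, red those called higher (175), blue those called lower (1218) and grey the rest, and the diagonal marks equal levels. Irf7, Isg15 and Rtp4 lie below the diagonal, Hist1h2ap, Ccl3 and the stefin gene Stfa2l1 above it, and Kit on it.

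Cells were also grouped by clustering, and each class was named from marker genes; the names carry the ending "like", since no surface protein was measured. In the order challenged once and then rechallenged, neutrophil progenitor-like cells made up 16% (15.2 to 16.8) and 23.4% (22.5 to 24.4) of the clustered cells, with exact binomial intervals. Immature neutrophil-like cells made up 12.97% (12.3 to 13.7) and 18.1% (17.3 to 18.9), against 39.8% when unchallenged. Hematopoietic stem and progenitor cell (HSPC)-like cells made up 13.4% (12.7 to 14.2) and 11.1% (10.4 to 11.8), and monocyte-like cells 8.51% (7.92 to 9.13) and 11.7% (10.97 to 12.4). B lineage-like cells made up 17.2% (16.4 to 18.1) and 5.37% (4.89 to 5.88), and their median depth was 2739 and 1391 UMIs, so that limits on depth bear on their share. Erythroid-like cells made up 7.72% (7.16 to 8.31) and 3.17% (2.81 to 3.57), whereas the T, NK or innate lymphoid-like class made up 1.23% (1.01 to 1.49) and 4.43% (3.996 to 4.89). Clusters 9 and 11, led by Apoe, F2r and Gata2 and by Cd34, Muc13 and Cpa3, stayed unnamed and held 11.4% and 6.58%. The source name in the labels is that of neutrophils, whereas Kit stood at 44.9 and 47.6 CPM over all cells, and the 3 neutrophil classes together with the other classes show a mixed marrow sample.

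Because the libraries differ in their mix of classes, each ratio was also computed with each class given the same weight in both libraries. That weight was the mean of its shares, called equal class shares below. The weighting was applied to the 2 challenged libraries only, and comparisons with unchallenged levels over all cells carry each library's own mix. Of the 175 higher genes, 96 (54.9%) were still called higher in that way, and of the 1218 lower genes 619 (50.8%) were still called lower. In each of 9 classes with at least 100 cells in both libraries the ratios were computed again, and 851 genes could be tested in every one. Among these, 13 were higher and 10 lower by the 1.5-fold rule in all 9 classes.

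Genes of the interferon response were lower after rechallenge than after 1 challenge, in cells as different as HSPC-like, B lineage-like and neutrophil-like cells. Of 46 tested members of the interferon response list, 37 were lower (against the background of 12.6%) and 0 higher, with a median of -0.93. Their summed level was 1712 CPM in unchallenged cells, 2747 after 1 challenge and 855 after rechallenge. The rechallenged level was therefore below the unchallenged level as well. With equal class shares the median was -0.83.

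Irf7, the interferon regulatory factor that amplifies the type I interferon response, stood at 28.9 CPM unchallenged, 73.7 (69.5 to 78.03) after 1 challenge and 6.56 (5.35 to 7.96) after rechallenge. That is 11.2-fold (9.18 to 13.9) lower in the rechallenged library, and the intervals of the 2 levels do not overlap. Isg15, a ubiquitin-like protein joined to other proteins during the response, stood at 64.1, 66.9 (62.97 to 71.1) and 10.3 (8.75 to 12.01) CPM in the same order, with the unchallenged level beside that after 1 challenge. Rtp4, an interferon-induced receptor transporter protein, stood at 62.2, 97.7 (92.9 to 103) and 15.4 (13.5 to 17.5) CPM. The mitochondrial interferon-induced protein gene Ifi27l2a was the most abundant of these, at 391, 728 (715 to 741) and 144 (138 to 149.7) CPM. Xaf1, which promotes apoptosis, stood at 32.2, 52.1 and 6.94 CPM, and Ifit1, which binds foreign RNA, at 16.2, 30.2 and 3.47 CPM. In each of these 6 genes the rechallenged library was the lowest of the 3. Bst2, which tethers budding virus to the cell, stood at 123, 271 (263 to 279) and 89.4 (84.8 to 94.2) CPM, and it was lower in all 9 classes. The stem cell antigen gene Ly6a, an interferon target used to sort mouse stem cells, stood at 37.8, 119.6 (114 to 125) and 32.8 (29.99 to 35.7) CPM.

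The promoters of several of these genes hold the core of the interferon-stimulated response element, the DNA element bound by interferon regulatory factors and the STAT complex. The element is described because no other list had as many members called lower as the interferon list. The 5 promoters shown are those with the lowest log2 ratios among genes with the core in the interferon, Ifitm and MHC class I lists. H2-T23 is of the MHC class I list. Ratios of genes with the core in these lists reached up to -0.31 (Stat2). The core searched was GAAANNGAAA, on both strands, in the 250 bases before each gene's start in RefSeq promoter sequences of the mouse build GRCm38.p6. It was present in 17 of 36 matched members of the interferon list (47.2%), in 3 of 16 matched members of the list for MHC class I presentation (18.8%), and in 936 of 27025 promoters of all genes (3.46%). Capitals mark the matches, which may overlap, in lower-case flanks, each written 5′ to 3′ on the strand of its gene. A match describes the letters only.
Isg15, chr4:156200860-156200911, minus strand, log2 ratio -1.92: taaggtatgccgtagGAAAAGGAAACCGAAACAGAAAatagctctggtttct
Ifit1, chr19:34640770-34640828, plus strand, log2 ratio -1.58: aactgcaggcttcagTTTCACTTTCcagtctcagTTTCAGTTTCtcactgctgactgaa
Irgm1, chr11:48871421-48871465, minus strand, log2 ratio -1.57: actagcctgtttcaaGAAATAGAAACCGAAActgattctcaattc
Bst2, chr8:71537572-71537617, minus strand, log2 ratio -1.50: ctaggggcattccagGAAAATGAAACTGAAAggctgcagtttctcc
H2-T23, chr17:36032801-36032840, minus strand, log2 ratio -1.90: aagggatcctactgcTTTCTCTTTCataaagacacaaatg
The Isg15 window holds 3 overlapping matches, those of Ifit1, Irgm1 and Bst2 hold 2 each, and that of H2-T23 holds 1.

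The interferon list had a negative median in each of the 8 classes where at least 10 members could be tested. Each count below is set beside the share of all genes tested in that class that were lower, its background. In immature neutrophil-like cells 28 of 28 were lower (median -1.53, background 12.4%), in HSPC-like cells 32 of 43 were lower (median -0.93, background 16.6%), in mature neutrophil-like cells 16 of 19 were lower (median -0.92, background 16.7%) and in erythroid-like cells 11 of 15 were lower (median -1.02, background 15.7%). In monocyte-like cells 10 of 16 were lower (median -0.79, background 15%) and in neutrophil progenitor-like cells 12 of 22 were lower (median -0.63, background 13.1%). In the T, NK or innate lymphoid-like class 2 of 10 were lower (median -0.44, background 26.7%), with 1 higher (background 12.4%). In B lineage-like cells 38 of 38 were lower (median -1.57, background 30%). There 1084 challenged once but 148 rechallenged cells reached 2000 UMIs. The minimum of UMIs over the pair was therefore met mostly through the challenged once library, and genes high in that library passed it more easily. The background of the class carries the same minimum, and its part in the count of 38 was not tested. The B lineage-like class joins cluster 5, led by Vpreb3, and cluster 8, and cluster 8 held 419 of the 1084 challenged once but 137 of the 148 rechallenged cells that reached 2000 UMIs. Within cluster 8, 13 of 16 were lower (median -1.59, background 26.6%). Whether the classes differ was not tested. Within the immature neutrophil-like class, Ifi27l2a stood at 204, 797 (759.6 to 836) and 25.4 (19.97 to 31.8) CPM in the order unchallenged, challenged once and rechallenged. That class is made of clusters 0, 1 and 7, and cluster 0 holds 522 challenged once but only 63 rechallenged cells. In cluster 1 alone Ifi27l2a stood at 1548 CPM after 1 challenge and 53.6 after rechallenge, and in cluster 7 at 53.6 and 3.16.

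**Figure D2:**
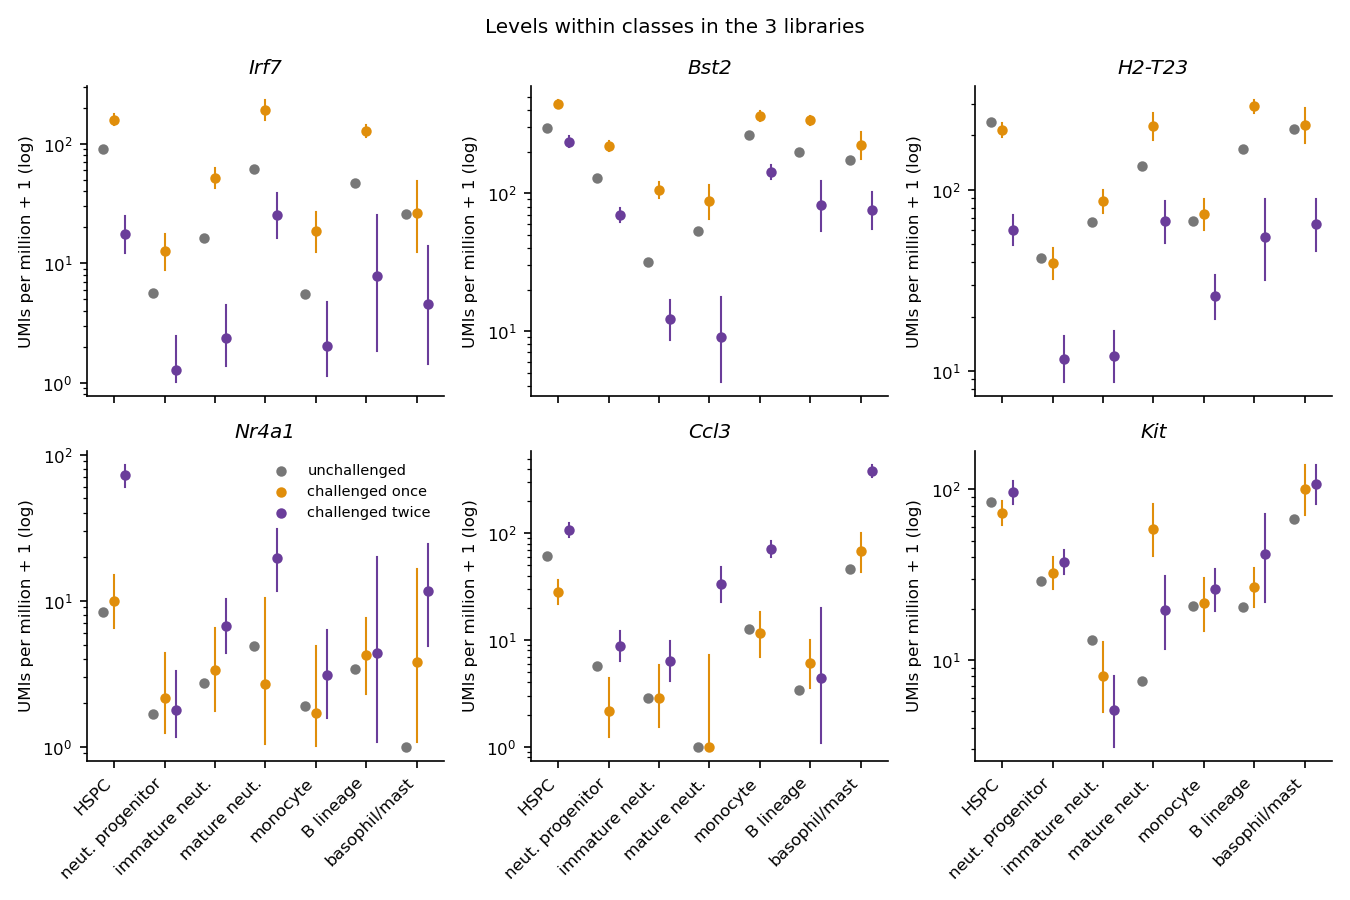
Level of 6 genes within 7 classes in CPM plus 1, on log axes, for the unchallenged (grey), challenged once (orange) and rechallenged library (purple, drawn under its label). Bars are exact Poisson 95% intervals, drawn for the 2 challenged libraries only. The levels of Irf7, Bst2 and H2-T23 were lower after rechallenge in every class drawn, while Nr4a1 was higher in HSPC-like cells and Ccl3 in HSPC-like, monocyte-like and basophil or mast cell-like cells.

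Genes that process and present peptides on MHC class I, which interferon also regulates, were lower too. Of 18 tested members 11 were lower and 0 higher, against backgrounds of 12.6% and 1.81%. Their median was -0.69, or -0.43 with equal class shares. The summed level of the list was 4937, 6904 and 3796 CPM in the order unchallenged, challenged once and rechallenged. H2-T23, which encodes the non-classical class I protein read by NK cells, stood at 106, 145 (139 to 151) and 31.5 (28.8 to 34.4) CPM. The classical heavy chain gene H2-D1 stood at 813, 1145 (1129 to 1162) and 483 (473 to 494) CPM. Both were lower in all 9 classes, and both share part of their sequence with other class I genes, so counts could be split between copies. The light chain gene B2m stood at 2281, 2903 and 1617 CPM, and the immunoproteasome subunit gene Psmb8 at 239, 391.6 and 203 CPM. Of 10 tested genes for MHC class II presentation none was called, and their median was -0.27.

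Heat shock chaperones, proteasome subunits and ribosome assembly factors were also lower. Each of these lists was higher after 1 challenge than in unchallenged cells by its summed level. That comparison carries each library's own mix of cells, with immature neutrophil-like cells at 39.8% when unchallenged and 12.97% after 1 challenge. The part of that mix was not tested. Counts of lower genes in this paragraph are to be read against the background of 12.6%. Of 16 heat shock chaperone genes 13 were lower (median -0.77). Their summed level was 4614, 7864 and 4309 CPM in the order unchallenged, challenged once and rechallenged. Hspa8, the constitutive Hsp70 chaperone, stood at 1502, 2397 (2373 to 2421) and 1179.7 (1163 to 1197) CPM, and its co-chaperone Dnaja1 at 247, 359 (350.1 to 369) and 132 (126 to 138) CPM. The Hsp90 gene Hsp90aa1 stood at 676, 1199 and 647 CPM. The rechallenged chaperone level was thus close to the unchallenged one, or below it for Hspa8 and Dnaja1. Of 21 ribosome biogenesis genes 16 were lower (median -0.78, summed level 2606, 4314 and 2561 CPM), among them the nucleolar protein gene Ncl at 419, 690.0 (677 to 703) and 348 (338 to 357) CPM. Of 21 proteasome genes 12 were lower (median -0.62), including the core subunit gene Psmb2 at 209, 265 and 139.5 CPM.

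In neutrophil progenitor-like cells 16 of 21 ribosome biogenesis and 12 of 16 chaperone genes were lower, against the background of 13.1% in that class. Of 13 chaperone genes tested in erythroid-like cells 0 were lower and 0 higher (backgrounds 15.7% and 6.22%). Within cluster 8 of the B lineage-like class 0 of 13 ribosome biogenesis genes were lower and 1 higher (median -0.02, backgrounds 26.6% and 7.76%), and 4 of 12 chaperone genes lower and 0 higher. Whether the classes differ in these lists was not tested.

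**Figure D3:**
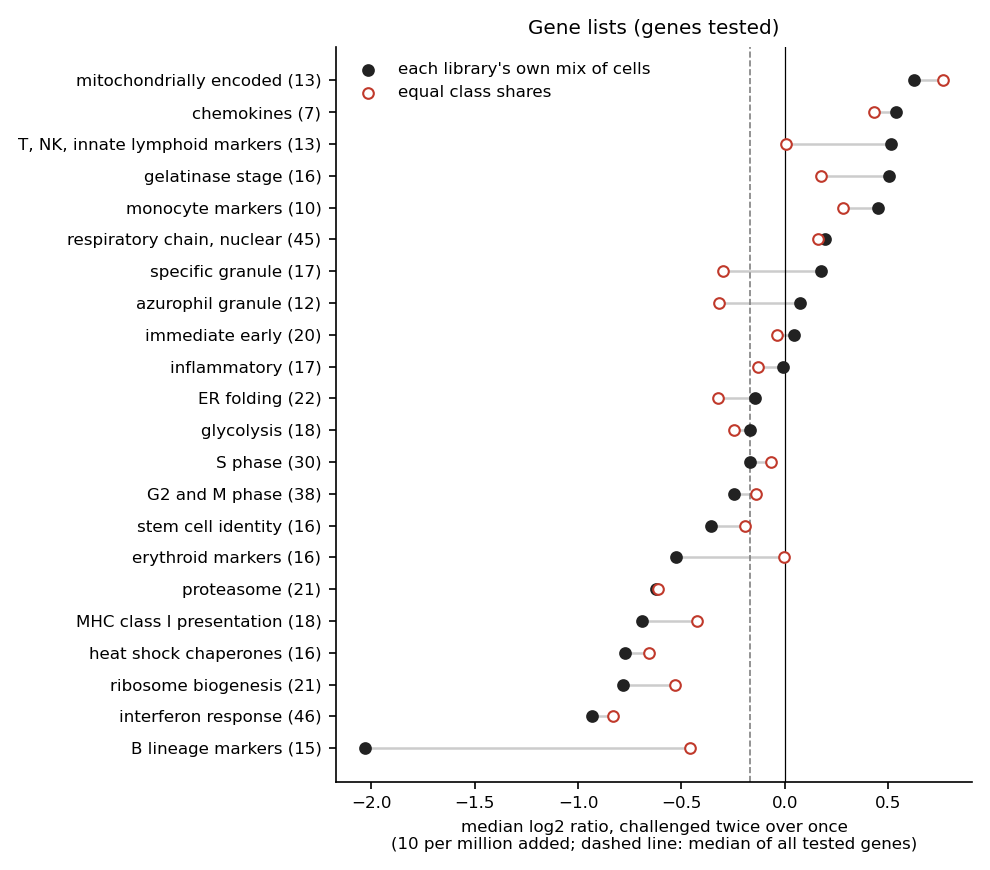
Median log2 ratio of rechallenged to challenged once for 22 gene lists, with the number of tested genes in brackets. Filled points use each library's own mix of cells, open points equal class shares, and the dashed line is the median of all tested genes (-0.17). The interferon, ribosome biogenesis, heat shock, MHC class I and proteasome lists lie left of it under both, and B lineage markers move from -2.03 to -0.46.

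A further 6 genes outside the lists described so far were lower in all 9 classes. They were the polyubiquitin gene Ubb at 1576, 1552 and 739 CPM in the order unchallenged, challenged once and rechallenged, the glycolytic enzyme gene Tpi1 at 193, 286 and 147 CPM, the Hsp90 partner gene Cdc37, the G protein subunit gene Gnb2, the secretory pathway gene Tmed9 and Rps27rt, a copy of a ribosomal protein gene. The interferon-induced surface protein gene Ly6e completes the 10 genes with Bst2, H2-T23 and H2-D1. It stood at 598, 1074 and 499.9 CPM.

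Of 7 tested chemokine genes 3 were higher after rechallenge, against the background of 1.81%, and 0 lower. Ccl3 and Ccl4 encode chemokines that draw monocytes and T cells. Ccl3 stood at 9.02 CPM unchallenged, 9.41 (7.96 to 11.04) after 1 challenge and 50.4 (46.9 to 54.04) after rechallenge, which is 5.36-fold (4.49 to 6.42) higher than after 1 challenge. Ccl4 stood at 25.3, 29.6 (26.99 to 32.4) and 97.1 (92.3 to 102) CPM. The challenged once level of both was near the unchallenged level. The other of the 3 was Ccl5, a T and NK cell product at 34.95, 72.5 and 333 CPM. Its log2 ratio of 2.06 was 0.68 with equal class shares, and the share of T, NK or innate lymphoid-like cells, in which it stood at 4248 and 6917 CPM, was 1.23% and 4.43%. That class joins cluster 17, led by genes that include Ccl5 and Gzma and holding 68 of its 103 challenged once and 341 of its 367 rechallenged cells, with cluster 22, and the part of that mix in these levels was not tested. Short of the limit were Ccl6 (0.37), Ccl9 (0.54), Cxcl2 (0.15) and Pf4 (0.39) on the log2 scale. By class, Ccl3 stood at 66.7 (42.7 to 99.2) and 384 (335 to 439) CPM in basophil or mast cell-like cells and at 10.6 (5.91 to 17.4) and 70.02 (58.7 to 82.9) CPM in monocyte-like cells. In basophil or mast cell-like cells Tnfaip3, an inhibitor of NF-kB signalling, stood at 30.6 (15.3 to 54.7) and 192 (158 to 232) CPM.

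Of 20 tested immediate early genes, which respond within minutes to many stimuli and to cell handling, 3 were higher and 3 lower (median 0.05, backgrounds 1.81% and 12.6%). Egr1 stood at 11.1, 21.3 (19.1 to 23.7) and 46.4 (43.1 to 49.9) CPM and the nuclear receptor gene Nr4a1 at 2.67, 3.58 (2.71 to 4.63) and 15.1 (13.2 to 17.2) CPM, the rechallenged library the highest for both. Jun, a partner in the same AP-1 factor as Jund, differed the other way, at 198, 295 (287 to 304) and 119 (113 to 124) CPM. Jund stood at 143, 176 and 229 CPM, and its log2 ratio of 0.36 was 0.89 with equal class shares. The list was therefore split, and the part of cell handling in it was not tested.

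In HSPC-like cells, 291 of 6739 tested genes were higher (background 4.32%) and 1119 lower (background 16.6%). Irf7 stood at 89.1 CPM unchallenged, 158 (142 to 175) after 1 challenge and 16.5 (11.1 to 23.5) after rechallenge, Ifit1 at 72.5, 58.8 (49.2 to 69.8) and 6.59 (3.41 to 11.5) CPM, and Isg15 at 110.4, 95.2 (82.8 to 109) and 13.7 (8.89 to 20.3) CPM. For these 3 genes the unchallenged level was nearer to that after 1 challenge than to that after rechallenge. Ly6a stood at 251, 471 (443 to 500.2) and 168 (149.8 to 188) CPM, the unchallenged level being nearer to the rechallenged one, and the co-chaperone gene Dnaja1 at 413, 467 (439 to 496) and 141 (124 to 159.6) CPM. Kit differed little, at 83.8, 71.8 (61.1 to 83.8) and 95.1 (81.4 to 110.3) CPM, with intervals that overlap. Cd34, a surface protein of progenitors, stood at 349, 262 (241 to 284) and 182 (163 to 203) CPM, lowest after rechallenge but short of the 1.5-fold limit. Of 17 stem cell identity genes 4 were lower and 0 higher.

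In HSPC-like cells 5 of 18 immediate early genes were higher and 0 lower, and 2 of 5 chemokine genes were higher and 1 lower. The backgrounds in that class were 4.32% higher and 16.6% lower. Nr4a1 stood at 7.31, 8.98 (5.48 to 13.9) and 70.9 (59.2 to 84.2) CPM, Egr1 at 22.6, 16.6 (11.7 to 22.9) and 80.2 (67.7 to 94.3) CPM, and Ccl3 at 59.8, 27.4 (20.9 to 35.2) and 107 (92.1 to 123) CPM. For all 3 the intervals of the challenged libraries lie apart. Egr1 and Ccl3 are given for the whole class only, and the part of the mix of its clusters (below) in their levels was not tested. Irf8, the factor that directs progenitors to monocytes and dendritic cells, stood at 187, 127 (113 to 143) and 288 (264 to 314) CPM.

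The HSPC-like class joins clusters with different leading genes, and their proportions differed between the libraries. Cluster 6, led by Ctla2a, Ly6a, Hlf and Adgrl4, held 817 challenged once and 500 rechallenged cells. Cluster 12, led by Cox6a2, Ly6d, Dntt, Flt3 and the chemokine gene Ccl4, held 304 and 420. Within cluster 6 Irf8 stood at 31.5 and 27.2 CPM (log2 -0.16) and within cluster 12 at 382 and 600.2 CPM (log2 0.64), so the difference of the whole class is not present within cluster 6. Irf7, Nr4a1 and the interferon list kept their direction in both clusters. Irf7 stood at 159.9 and 16.1 CPM in cluster 6 and at 153 and 16.9 CPM in cluster 12. Nr4a1 stood at 4.32 and 66.5 CPM in cluster 6 and at 21.4 and 76.1 CPM in cluster 12. The interferon list had a median of -0.90 in cluster 6 (26 of 37 lower, background 20.8%) and -0.94 in cluster 12 (14 of 18 lower, background 22.5%).

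In neutrophil progenitor-like cells, 183 of 6919 tested genes were higher (background 2.64%) and 908 lower (background 13.1%). Ifitm3, a membrane protein that blocks virus entry, stood at 105 CPM unchallenged, 611 (581 to 641) after 1 challenge and 190.0 (176 to 204) after rechallenge. Bst2 stood at 129, 219 (202 to 238) and 68.6 (60.5 to 77.4) CPM. The acute phase gene Saa3 was without a UMI in unchallenged progenitors and stood at 98.1 (86.4 to 111) and 38.2 (32.3 to 44.9) CPM in the challenged ones. Fam136a, a mitochondrial protein gene, stood at 42.5, 105 (92.9 to 118) and 24.3 (19.6 to 29.8) CPM. Sdf2l1, a chaperone of the endoplasmic reticulum, stood at 651, 1255 (1213 to 1299) and 583 (559 to 607) CPM. For these genes the rechallenged library lay below that challenged once, and for Bst2, Fam136a and Sdf2l1 also below the unchallenged level. Jund stood at 17.9, 13.8 (9.66 to 19.1) and 106 (96.1 to 117) CPM, and Polr2l, a subunit of the RNA polymerases, at 108, 105 (93.3 to 119) and 297 (279.7 to 314) CPM, both highest after rechallenge.

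Of 12 azurophil granule genes tested in these progenitors 1 was higher and 1 lower (median -0.27, backgrounds 2.64% and 13.1%), and neither Mpo nor Elane was called. Mpo, which encodes myeloperoxidase, stood at 6580.4, 4503 and 4464 CPM. Elane, which encodes neutrophil elastase, stood at 15930.3, 9105 and 6359.5 CPM (log2 -0.52 between the challenged libraries). The factor gene Gfi1, needed for neutrophil fate, stood at 50.2 (41.97 to 59.6) and 72.2 (63.9 to 81.3) CPM, the receptor gene Csf3r at 42.1 (34.6 to 50.8) and 57.3 (49.96 to 65.4) CPM and the emergency granulopoiesis factor gene Cebpb at 248 (229.5 to 268) and 255 (239 to 271) CPM. None of these 3 was called. The class joins cluster 4, which holds most of it after 1 challenge (800 of its cells, against 537 in cluster 3), and cluster 3, which holds most of it after rechallenge (1099, against 843 in cluster 4). Within cluster 3 Elane stood at 12509 and 8094 CPM (log2 -0.63) and within cluster 4 at 6748 and 4028 CPM (log2 -0.74), so that it passed the limit within each cluster. Ifitm3 had log2 ratios of -2.42 and -0.99 in clusters 3 and 4, Sdf2l1 of -1.09 and -1.15, and Jund of 2.15 and 2.52. The interferon list had medians of -0.34 and -0.33 there, with 3 of 8 and 3 of 11 lower, against backgrounds of 17% and 14.9%.

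Over all cells the medians of the granule lists lay above that of all tested genes, and the shares of the neutrophil classes were larger after rechallenge. The part of that mix in these lists was not tested. Against a background of 1.81% higher, 7 of 16 genes of the gelatinase granule stage were higher (median 0.50, or 0.18 with equal class shares). Of 17 specific granule genes 2 were higher (median 0.17, or -0.30). The 7 include BC100530, Stfa2l1, Stfa1 and G0s2, which were also higher within mature neutrophil-like cells, as described below. Camp, the cathelicidin gene of specific granules, stood at 30297, 7764 and 10599 CPM over all cells and at 64406, 48744 and 45929.9 CPM in immature neutrophil-like cells. Chil3, which encodes a chitinase-like protein of the same stage, stood at 7505, 7526 and 3674 CPM in that class. With the proportions of clusters 0, 1 and 7 differing between the libraries, Chil3 stood at 7099 and 4777 CPM within cluster 1 (log2 -0.57, short of the limit) and at 4653 and 2641 CPM within cluster 7 (log2 -0.82). Camp was also read in erythroid-like cells, which do not make it, at 158 CPM after 1 challenge and 611 after rechallenge, and in HSPC-like cells at 213 and 273 CPM. Granule gene levels of this size outside neutrophils were therefore not read as expression.

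Stefin genes, which encode cytosolic inhibitors of cathepsins, were higher in the rechallenged library in mature and in immature neutrophil-like cells. In mature neutrophil-like cells BC100530 stood at 28.6, 210.2 (175 to 251) and 2114 (2018 to 2213) CPM in the order unchallenged, challenged once and rechallenged, Stfa2l1 at 42.97, 420.3 (369.6 to 476) and 1803 (1714 to 1895) CPM, and Stfa1 at 83.3, 231 (193 to 273) and 1231 (1158 to 1307) CPM. The 3 libraries rank in the same order for each of these genes. In immature neutrophil-like cells the log2 ratios were 2.74 for BC100530, 1.75 for Stfa2l1 and 1.53 for Stfa1, and that of BC100530 was 2.80 within cluster 1 and 1.57 within cluster 7. These stefin genes are near copies, with 37.4% to 56.8% of the 31-base words at the ends of their transcripts shared with other genes, so their split is uncertain. G0s2, an inhibitor of fat breakdown, stood at 241, 364 (317 to 417) and 1472 (1392 to 1555) CPM, and the calcium-binding protein gene S100a6 at 5419, 10895 and 23204 CPM. The cytokine gene Il1b did not differ between the challenged libraries beyond counting error, at 700.0 (634 to 771) and 704 (649 to 762) CPM, but stood at 1.30 CPM when unchallenged. The class joins clusters 13 and 14, and cluster 14 held 2 unchallenged cells of at least 2000 UMIs, 183 challenged once and 221 rechallenged, so the unchallenged levels are almost wholly those of cluster 13. BC100530 had log2 ratios of 2.93 and 3.52 within clusters 13 and 14, and Stfa2l1 of 2.97 and 2.16.

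B lineage and lymphoid genes differed over all cells, as did the shares of these classes, and the part of that mix was not tested. Of 15 tested B lineage markers 14 were lower (background 12.6%), the surrogate light chain gene Igll1 the furthest at 447 and 20.2 CPM. Ebf1, the factor that sets B lineage fate, had a log2 ratio of -2.74 over all cells and -0.18 with equal class shares, and within cluster 8 of the B lineage-like class it stood at 3501 (3376 to 3630.2) and 4274 (4032 to 4526) CPM. Vpreb3, a gene that leads cluster 5, stood at 3121 and 2620.4 CPM within cluster 8 (log2 -0.25). Gzma, the granzyme gene of cytotoxic cells, had a log2 ratio of 2.08 over all cells and 0.85 with equal class shares, and stood at 898 (773 to 1037) and 1890.4 (1787 to 1998) CPM within T, NK or innate lymphoid-like cells, of which 103 and 333 reached 2000 UMIs. Cluster 17, which Gzma helps to define, made up 68 of 103 and 341 of 367 cells of that class, and the part of that mix in this level was not tested either.

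**Figure D4:**
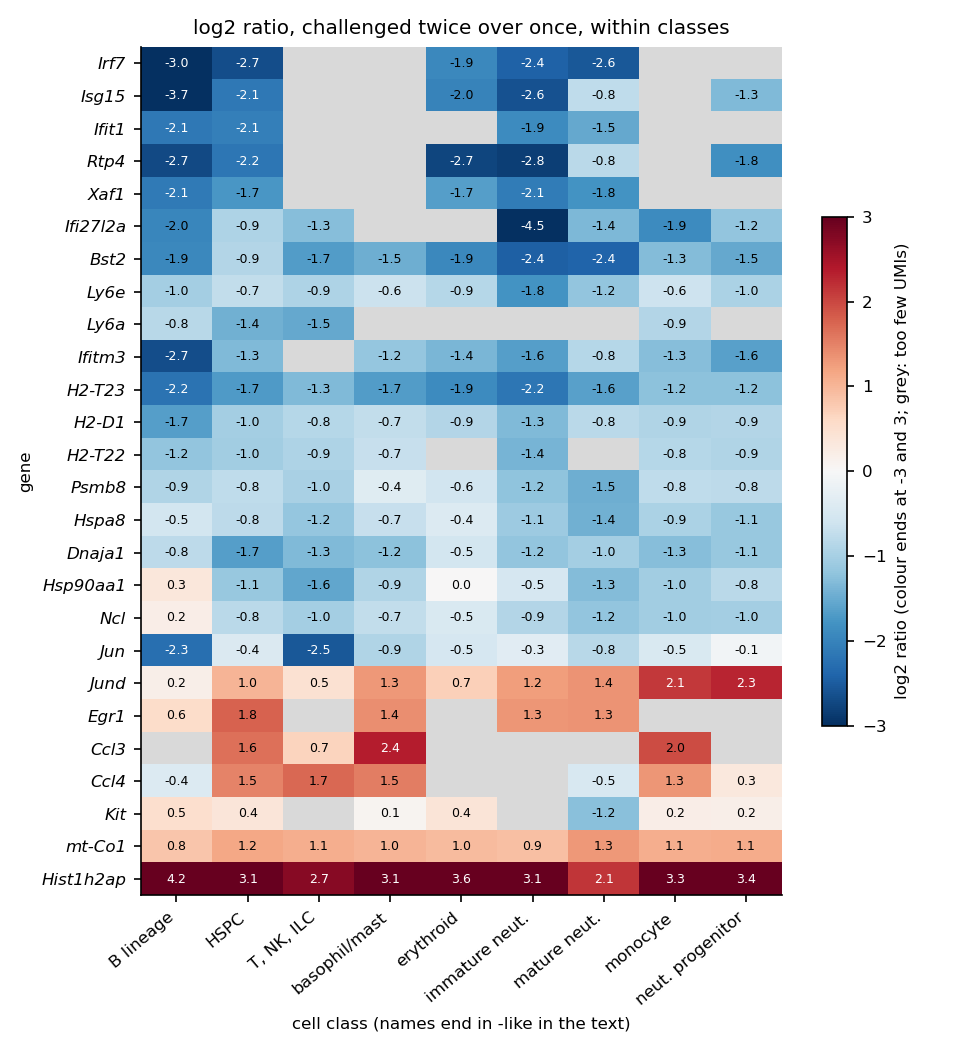
Log2 ratio of rechallenged to challenged once (colour, red higher and blue lower) for named genes in rows and the 9 classes in columns, from cells thinned to 2000 UMIs, with grey where a gene had too few UMIs to be tested. H2-T23, Bst2, H2-D1 and Ly6e are blue in all 9 columns, Jund, mt-Co1 and Hist1h2ap red in all 9, and Ccl3 is red in the 4 columns where it could be tested.

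The genes higher in all 9 classes were mostly of another kind, with short coding sequences or mitochondrial origin. They included 7 ribosomal protein genes (Rpl35, Rpl37a, Rpl38, Rpl41, Rps21, Rps28 and Rps29), the mitochondrial genes mt-Co1 and mt-Co2, the signalosome subunit gene Cops9, the histone gene Hist1h2ap and the predicted gene Gm10076. Rpl41 stood at 5784, 8603 and 14615 CPM in the order unchallenged, challenged once and rechallenged, and Cops9 at 264, 241 (233 to 248) and 573 (561 to 585) CPM. Hist1h2ap stood at 591, 187 (180.3 to 194) and 1561 (1541 to 1581) CPM. All of the 31-base words at the end of its transcript occur in other genes too, so its reads could be split with near copies. Hist1h2ap was lowest after 1 challenge, below its level in unchallenged cells.

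Mitochondrially encoded genes, which make subunits of the respiratory chain, were higher. Of 13 tested 7 were higher and 0 lower (median 0.62, backgrounds 1.81% and 12.6%), and their summed level was 20059, 25194 and 39051 CPM. The gene mt-Co1 stood at 3763, 4216 and 8488 CPM. The list had a positive median in all 9 classes, from 0.45 in T, NK or innate lymphoid-like cells to 1.09 in B lineage-like cells. The median mitochondrial share of a kept cell was 2.58% after 1 challenge and 4.09% after rechallenge, a measure that is also read as a sign of cell quality. With at most 5% allowed per cell, 199 genes were higher, 1413 lower and the interferon list's median was -0.92, and with no such limit the values were 171, 1235 and -0.87.

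The ribosomal protein genes ranked by coding length. All 83 tested genes of that family together took 22.8%, 31.6% and 35.6% of UMIs in the order unchallenged, challenged once and rechallenged. Of them 11 were higher and 6 lower, against backgrounds of 1.81% and 12.6%, with a median of 0.03. Across the 83 genes the log2 ratio had a Spearman correlation of -0.66 and a Pearson correlation of -0.63 with coding length (Pearson on log2 length), and across the 78 that are not named as copies -0.78 and -0.78. Genes are not independent replicates, and these coefficients describe 1 pair of libraries. Of the 10 genes with under 300 coding bases 9 were higher, the exception being the copy Rps27rt, while all 4 genes with at least 900 bases had negative ratios. Rpl38 stood at 2866 and 5799 CPM and Rpl4, one of the longest, at 2718 and 1483 CPM. For the challenged once library over the unchallenged one the same correlation was 0.34 (Spearman), so the order by length ran the other way in that pair.

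**Figure D5:**
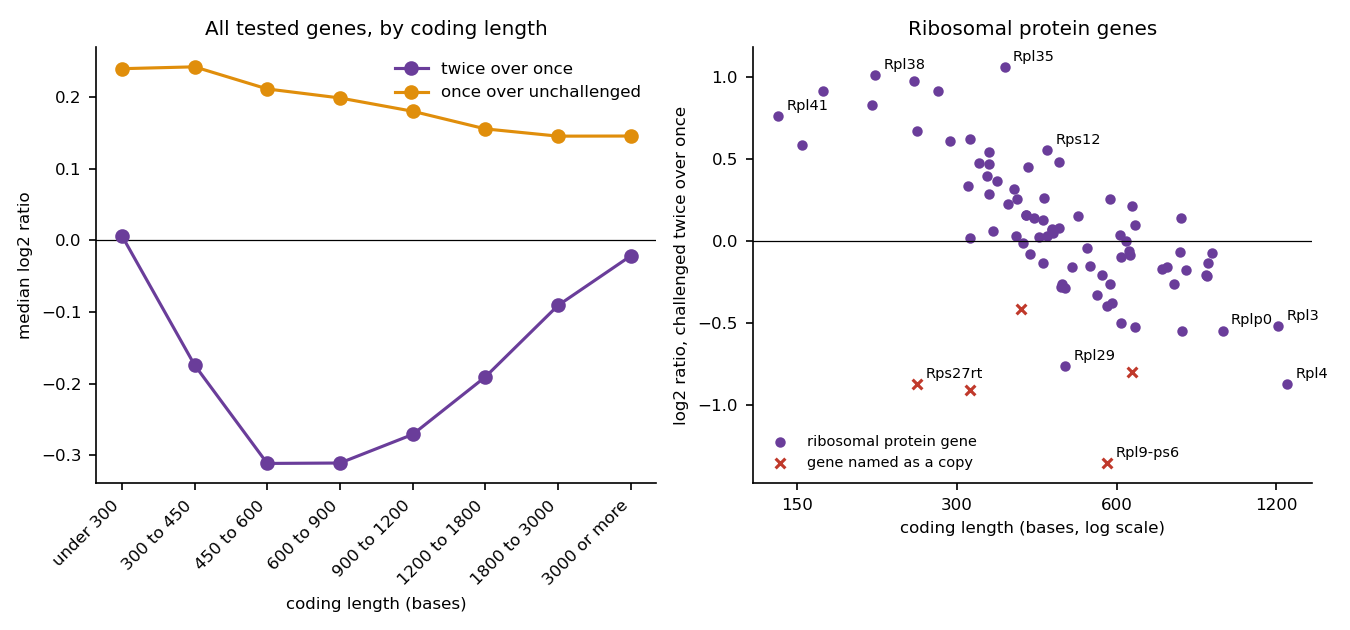
Left, median log2 ratio of all tested genes in classes of coding length in bases, for rechallenged over challenged once (purple) and challenged once over unchallenged (orange); right, log2 ratio of rechallenged over challenged once against coding length in bases (log axis) for the 83 ribosomal protein genes, with crosses for the 5 named as copies. Short ribosomal protein genes lie above 0 and long ones below, with Spearman -0.66. Over all genes the median was lowest, at -0.31, from 450 to 900 coding bases.

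Over all tested genes the ratio also differed by length, but in another order. A coding length was found for 9420 of 9682 tested genes (97.3%). The median tested gene stood at 0.01 for under 300 coding bases, at -0.31 from 450 to 900, at -0.09 from 1800 to 3000 and at -0.02 for 3000 or more. Over these 9420 genes the ratio had a Spearman correlation of 0.23 with length, opposite in sign to that of the ribosomal protein genes. Higher genes had a median coding length of 687 bases, lower genes 981 and the others 1407. Within the respiratory chain genes of the nucleus, short subunits such as Cox6a1 (0.72) and Atp5k (0.84) were higher and longer ones such as Sdhb (-0.84) and Uqcrc1 (-0.63) lower. Measured against the median of genes of like length, 467 of the 9420 genes were lower, which is the background on that scale. There the interferon list still had a median of -0.78, with 32 of 46 lower, and the heat shock list -0.60, with 8 of 16 lower. The MHC class I list had -0.41, with 7 of 18 lower, and the ribosome biogenesis list -0.56, with 10 of 21 lower. The proteasome list had -0.32, with 3 of 21 lower. Why coding length and the ratio moved together was not tested.

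Other lists differed little between the challenged libraries, against backgrounds of 1.81% higher and 12.6% lower. Of 30 S phase genes 4 were lower and 0 higher, and of 38 genes of G2 and M phase 4 and 0. Of 17 inflammatory genes 2 were lower and 0 higher (median -0.01), of 19 cytokine receptor genes and 14 genes of endotoxin sensing none was called, and none of 7 NADPH oxidase genes. Of 22 genes of protein folding in the endoplasmic reticulum 1 was higher and 4 lower (median -0.14), and the ER stress element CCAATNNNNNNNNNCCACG, searched on both strands, was in 7 of 19 matched promoters (36.8%) against 0.13% of all promoters.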

How the data were processed

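The deposited tables hold raw UMI counts of 31053 genes per cell barcode, made with the 10x 3′ kit version 2 per the labels' protocols, and with Cell Ranger 3.0.0 against mm10 per the submitters' processing notes. The smallest barcode total was 500, and total counts per library were 119646078, 135079828 and 95522747 (unchallenged, challenged once, rechallenged) over 9684, 9060 and 8923 barcodes. Cells were filtered, thinned to 2000 UMIs and summed per library. The levels carry exact Poisson intervals, folds exact conditional binomial intervals and shares exact Clopper-Pearson intervals, all at 95%. Within classes a gene needed 50 UMIs over the pair. PCR duplicates are removed by UMIs, and the intervals cover counting error only.

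For classes, Scrublet calls were left out (427, 294 and 256 cells, expected rate 6%) and the libraries were clustered together with scanpy 1.11.5 and leidenalg 0.10.2 at resolution 1 on 2000 variable genes, 30 components and 15 neighbours, leaving out response, cell cycle, ribosomal, mitochondrial and sex-linked genes. Clusters of at least 20 cells with 3 or more markers of a class were named. Class values rest on clusters built from the same cells, so the genes that define a class are not results.

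The genes named are the 15 largest ratios each way over all cells, 5 each way in HSPC-like and neutrophil progenitor-like cells, 10 each way in all classes, up to 6 members of each of 38 lists, and a fixed set (Nr4a1, Saa3, Hist1h2ap, Irf8, Gfi1, Csf3r, Cebpb, Elane, Mpo, Cd34, Ly6a and Kit). Others, such as the ribosomal protein genes, Irgm1, B2m and single genes within classes, were chosen after their values were seen. Some genes that the rule takes are not reported here. The comparison, lists and rules were chosen with earlier results of these data known. Coding lengths are the longest coding sequence per gene in GENCODE M21 on GRCm38. Sums, ratios and calls were tested on simulated data. Further tools were pandas 2.3.3, scipy 1.17.1, numpy 2.4.6, anndata 0.12.19 and matplotlib 3.10.9.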

Additional observations from a re-analysis of the deposited data

Results flagged for a closer look

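For 17 of the genes named by rule, 1 class passed the 1.5-fold limit upward and another downward, which is what brought them here. With 1 library in each group none of these differences between classes was tested. In immature neutrophil-like cells Srgn, the proteoglycan of granules, had a log2 ratio of 2.07 and in B lineage-like cells -0.83, a difference of 2.90. Mt1, a metallothionein, stood at 1.77 in immature and -0.79 in mature neutrophil-like cells, a difference of 2.55, and the histone gene Hist1h4i at 1.33 and -0.69 in the same classes, a difference of 2.01. Gstm1 stood at 0.76 in immature neutrophil-like and -0.88 in B lineage-like cells, a difference of 1.64, and Hdc, which makes histamine, at 1.08 in basophil or mast cell-like and -0.60 in immature neutrophil-like cells, a difference of 1.69.

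B lineage-like cells were the higher class for several genes, on 148 rechallenged cells of which 137 were of cluster 8, against 419 of 1084 after 1 challenge. Within cluster 8 alone the log2 ratio was 1.72 for Cd74, 0.34 for Hspd1, 0.053 for Igfbp4, 0.16 for Dut, -0.038 for Gins2, -0.39 for Irf8, -0.62 for Srgn and -0.14 for Ly6c2, so that of these 8 genes Cd74 and Srgn pass the 1.5-fold limit there. Over the whole B lineage-like class the MHC class II invariant chain gene Cd74 stood at 1.86, and in T, NK or innate lymphoid-like cells at -1.35, a difference of 3.20. Between the same whole classes, the mitochondrial chaperone gene Hspd1 differed by 2.21, Igfbp4 by 2.16 and Dut, of nucleotide metabolism, by 1.83. The replication gene Gins2 differed by 1.54 between B lineage-like and monocyte-like cells. Irf8 stood at 1.12 in HSPC-like and -0.60 in B lineage-like cells, a difference of 1.72. Cenpf, of the kinetochore, was higher in T, NK or innate lymphoid-like and lower in immature neutrophil-like cells, a difference of 1.71, and Ccl9 higher in monocyte-like and lower in basophil or mast cell-like cells, a difference of 1.39.

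Erythroid-like cells were the higher class for 4 myeloid genes. The difference was 2.35 for Chil3 (against neutrophil progenitor-like cells), 2.01 for Ly6c2 (against B lineage-like cells), 1.97 for Mpo (against mature neutrophil-like cells) and 1.78 for Lcn2 (against T, NK or innate lymphoid-like cells). Camp, another myeloid gene, had a log2 ratio of 1.89 in the same class, where its level was not read as expression (above). The levels of these 4 genes in erythroid-like cells were not read as expression either, nor was that of Lcn2 in T, NK or innate lymphoid-like cells.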

How the results depend on the processing

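Over all cells, the count of higher genes was 443 with 1 CPM added, 63 with 50 CPM, 373 with the median ratio set to 0, 301 with equal shares of the finer clusters and 383 with the median of each coding length class set to 0, against 175. The count of lower genes was 2563 with 1 CPM, 266 with 50 CPM, 596 with the median ratio set to 0, 688 with equal class shares and 467 by length class, against 1218. In HSPC-like cells 555 genes were higher with 1 CPM, and in neutrophil progenitor-like cells 453 were higher and 1540 lower. The interferon list's median was -0.61 without thinning, -1.45 with 1 CPM and -0.36 with 50 CPM, and it stayed negative under every alternative run. With equal shares of the finer clusters, the log2 ratio changed sign for Cd7 (-0.14), Ebf1 (0.060), H2-Q4 (0.00431), Rrp9 (0.23), Txnip (0.18) and Mt2 (0.23), and for Mt2 (0.17) with equal class shares too. Beyond the constructions of these alternatives, the cause was not tested. The equal cluster shares, the coding length classes and leaving out lymphoid cells were chosen after seeing the data.

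No paired analysis was possible because each group holds 1 library, and for the same reason no replicate could be left out. Limits are the single library on each side, the hours that differ with the number of challenges, and depth: a gene with few UMIs after thinning cannot show a 1.5-fold difference, and low levels are pulled to a ratio of 1 by the added CPM. Clusters over 90% from 1 library exist at resolution 2 (0, 1, 10 and 18).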

Other observations

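Of 18 tested antioxidant and metal-binding genes 5 were lower and 2 higher (backgrounds 12.6% and 1.81%), and their median of -0.14 is set beside -0.17 for all tested genes. The metallothionein gene Mt2 had a log2 ratio of -0.79, or 0.17 with equal class shares. The mitochondrial superoxide dismutase gene Sod2 stood at 66.7, 98.4 (93.6 to 103) and 47.2 (43.9 to 50.8) CPM in the order unchallenged, challenged once and rechallenged, and the peroxiredoxin gene Prdx1 at 270.3, 434 (424 to 444) and 233 (225 to 240.4) CPM. For both the rechallenged level was below the unchallenged one. The cystine transporter gene Slc7a11 was higher, at 3.18, 6.15 (4.99 to 7.49) and 17.9 (15.8 to 20.1) CPM. Of 19 genes of cholesterol and fatty acid synthesis 1 was higher, the desaturase gene Scd2 at 28.7, 49.8 (46.4 to 53.4) and 97.2 (92.3 to 102) CPM. Pmaip1, which encodes a protein that promotes apoptosis, was the 1 gene called among 12 of cell death and survival, at 1.82, 3.26 (2.44 to 4.28) and 14.8 (12.9 to 16.8) CPM, and in monocyte-like cells it stood at 4.23 (1.55 to 9.20) and 43.6 (34.8 to 53.9) CPM.

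For markers of further lineages, the share of the class is given where 1 was named. All counts in this paragraph are to be read against backgrounds of 1.81% higher and 12.6% lower. Of 16 erythroid genes 7 were lower (median -0.53, or -0.01 with equal class shares), while the share of erythroid-like cells was 7.72% and 3.17%, with the carbonic anhydrase gene Car2 at 348 and 105 CPM. Of 9 basophil and mast cell genes 3 were higher (median 0.42, or 0.09), with the protease gene Mcpt8 at 109.5 and 274 CPM, while the share of basophil or mast cell-like cells was 2.18% and 3.48%. Of 10 monocyte genes 4 were higher (median 0.45, or 0.28), with the chemokine receptor gene Ccr2 at 17.2 and 46.1 CPM, while the share of monocyte-like cells was 8.51% and 11.7%. Of 13 T, NK and innate lymphoid genes 5 were higher and 1 lower (median 0.52, or 0.00), with class shares of 1.23% and 4.43%. Of 9 dendritic cell genes 2 were higher and 1 lower (median 0.35, or 0.41), with class shares of 1.18% and 1.80%. Of 6 macrophage genes 1 was higher (median -0.05, or -0.12), although the class share was lower, at 1.38% and 0.82%. Of 4 eosinophil genes 1 was higher (median 0.37, or 0.21), and no class was named for these cells. Of 23 histone genes 2 were higher and 1 lower. For acute phase genes the count was 1 of 9 higher, for azurophil granule genes 2 of 12 higher, and for the factors of granulocyte and monocyte fate 1 of 16 in each direction. For glycolysis it was 3 of 18 lower, for the Ifitm family 1 of 4 lower, for nuclear respiratory chain genes 4 of 45 higher and 7 lower, and none of 3 megakaryocyte genes was called.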
